A study of Homo sapiens with 9 samples.

Results

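The genes described here are 28 enzymes, regulators and carriers of cholesterol and fatty acid synthesis, measured in RKO cells, an established human colorectal cancer line. They were chosen by gene name: every probe that is not a control and whose name is a member was taken, and the probe with the highest mean over all arrays stood for the gene. This gave 28 of the 36337 gene names on the array. Of these, 16 form the sterol arm, 7 form the fatty acid arm, 4 are regulators (SREBF1, SREBF2, SCAP and INSIG1) and 1, STARD4, carries sterols between membranes.

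Gene expression was measured on 9 single-colour Agilent arrays, with 5 conditions. The study asked which genes respond when UHRF1, a protein that reads DNA methylation and helps to keep it through cell division, is lost together with inhibition of histone deacetylases. RKO cells carried a control siRNA (siCONT, 2 arrays) or an siRNA against UHRF1 (siUHRF1, 2 arrays, each with a different siRNA) for 72 h and then ethanol vehicle, or the same siRNAs and then 300 nM trichostatin A (TSA), a histone deacetylase inhibitor, for 24 h (siCONT + TSA and siUHRF1 + TSA, 2 arrays each). A further array held RKO cells given 1 µM 5-aza-2′-deoxycytidine (5-aza-dC), an inhibitor of DNA methyltransferases, for 72 h with no siRNA. All groups are of 1 cell line. The 2 arrays of each siUHRF1 group held different siRNAs and so separate transfections. For the siCONT and siCONT + TSA groups the labels do not say whether the arrays came from separate cultures. The median absolute difference between the 2 arrays over all probes was 0.25 in siUHRF1 and 0.19 in siUHRF1 + TSA. It was 0.07 in siCONT and 0.075 in siCONT + TSA. The p-values pool these spreads, of which that of the siCONT groups may be technical. The 8 siRNA arrays shared 1 slide and 1 scan, with the TSA arrays in row 2 and the others in row 1, and siCONT in columns 1 and 2 and siUHRF1 in columns 3 and 4. Row and TSA, and column and siRNA, therefore cannot be told apart, and the array of 5-aza-dC came from a separate slide and scan.

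Cells make cholesterol from acetyl-CoA through mevalonate, farnesyl diphosphate and squalene, and make fatty acids from acetyl-CoA through malonyl-CoA. Both routes are driven by the SREBP transcription factors, encoded by SREBF1, which favours fatty acid genes, and SREBF2, which favours sterol genes. SCAP carries the SREBPs out of the endoplasmic reticulum when sterols are low, and INSIG1, itself an SREBP target, holds SCAP back when sterols are plentiful.

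Values are log2 signals after subtraction of each array's 75th percentile, and are called levels below. That percentile was at a signal of 245.3 to 337.9 across the 8 siRNA arrays and at 821.6 with 5-aza-dC. Spots well above background made up 46.8 to 49.6% of the former and 54.9% of the latter. Saturated spots numbered 0 on each array, and the number of arrays limits the precision. Differences are log2 fold changes from limma with Benjamini-Hochberg adjustment over all probes tested, and a gene was called at an adjusted p below 0.05. In the siRNA comparisons 17721 gene names were tested, among them 27 of the 28 members, and these 27 were above background on all 9 arrays. The exception was FADS1, which was above background on the 5-aza-dC array alone.

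The target of the siRNAs was low where the labels say so. UHRF1 was at a level of 3.26 and 3.26 in siCONT, 0.96 and 0.63 in siUHRF1, 3.40 and 3.42 in siCONT + TSA, 0.18 and −0.08 in siUHRF1 + TSA, and 4.26 under 5-aza-dC. It fell by 2.46 on the log2 scale after siUHRF1 (limma adjusted p = 0.00269), by 3.36 under TSA (adjusted p = 0.000151) and by 0.75 between siUHRF1 and siUHRF1 + TSA (adjusted p = 0.0237). Of 9 colonic epithelium markers, KRT8, KRT18 and CDX2 were above background on all 9 arrays, whereas CDH1, CDH17 and VIL1 were above it on none (0 arrays), and EPCAM, KRT19 and KRT20 on 2 or 3.

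Of 11 markers of other cell types, 2 to 4 were above background on the siCONT, siUHRF1 and siCONT + TSA arrays and 5 or 6 on the siUHRF1 + TSA arrays. Their summed signal, in multiples of the 75th percentile, was 0.659 and 0.68 in siCONT, 0.684 and 0.929 in siUHRF1, 1.06 and 1.17 in siCONT + TSA, 2.03 and 2.33 in siUHRF1 + TSA and 1.47 under 5-aza-dC, with COL1A1 the brightest on 8 arrays and VWF on the other. PECAM1, ALB, PLIN1 and ADIPOQ were above background on no array (0 of 9). Under siUHRF1 + TSA, COL1A2 was at least 3.96-fold and VWF at least 10.3-fold higher than in siCONT, these folds being set against the lowest signal seen above background and given with no test, since COL1A2 entered the siRNA comparisons only through siUHRF1 + TSA. KRT18, the brightest epithelial marker, rose by 0.78 in the same comparison, where all 4 epithelial markers tested were above 0. KRT19 was at −5.69 and −5.58 in siCONT and at −1.49 and −1.91 in siUHRF1 + TSA. It is given with no test, since it was above background on 3 arrays only. The part of these markers in the results below was not tested.

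To show the sequences that the sterol genes carry near their start sites, promoters were read from RefSeq (GRCh38.p14, windows of 300 bases around the start site), where 24 of the 28 members had an entry. Both strands were searched for a sterol regulatory element (TCACNCCAC), a CCAAT box (CCAAT), an E-box (CACGTG) and a GC box (GGGCGG). The sterol regulatory element was found in 1 member, SREBF2, against 1.15% of 27305 promoters and 1.16% of the 9395 promoters of genes tested on these arrays. CCAAT was found in 62.5% of members and in 36.6% of the promoters of tested genes, GGGCGG in 91.7% and 68.7%, and CACGTG in 12.5% and 10.2%. These letter matches are descriptions of the windows and not sites of binding. Variants of these letters, sequence outside the windows and the members without an entry were not searched. A window without a match therefore does not show that a gene lacks the element. SREBF2, HMGCS1 and NSDHL are shown, chosen after their values were seen, because the first encodes the sterol regulator, HMGCS1 is an enzyme of the mevalonate steps that was called under 5-aza-dC, and NSDHL was called in several comparisons. Capitals mark matches to TCACNCCAC and CCAAT on either strand, and in NSDHL 2 CCAAT matches on opposite strands overlap. The windows are chr22:41832855-41833154 on the plus strand for SREBF2, chr5:43313363-43313662 on the minus strand for HMGCS1 and chrX:152830813-152831112 on the plus strand for NSDHL.
SREBF2: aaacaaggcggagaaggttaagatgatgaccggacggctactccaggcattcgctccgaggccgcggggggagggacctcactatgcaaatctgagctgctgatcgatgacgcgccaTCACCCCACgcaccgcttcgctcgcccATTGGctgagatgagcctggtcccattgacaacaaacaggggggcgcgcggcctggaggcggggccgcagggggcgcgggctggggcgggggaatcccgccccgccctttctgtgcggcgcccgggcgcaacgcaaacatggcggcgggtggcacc
HMGCS1: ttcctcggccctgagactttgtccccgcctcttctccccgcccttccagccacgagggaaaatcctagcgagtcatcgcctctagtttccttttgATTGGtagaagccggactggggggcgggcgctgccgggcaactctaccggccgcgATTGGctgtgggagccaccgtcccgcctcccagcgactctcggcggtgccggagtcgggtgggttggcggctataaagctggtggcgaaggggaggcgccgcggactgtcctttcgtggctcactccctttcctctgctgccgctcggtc
NSDHL: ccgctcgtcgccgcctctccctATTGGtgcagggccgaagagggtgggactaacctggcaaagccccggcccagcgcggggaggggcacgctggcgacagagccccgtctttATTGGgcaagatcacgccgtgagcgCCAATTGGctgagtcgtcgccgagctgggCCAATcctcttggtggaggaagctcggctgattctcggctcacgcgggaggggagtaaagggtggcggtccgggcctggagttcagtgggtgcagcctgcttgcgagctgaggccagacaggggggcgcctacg

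When UHRF1 was depleted without TSA, no member passed the test. In limma 0 of 27 were called against a background of 0.7% of gene names higher and 0.0395% lower, and 2, NSDHL (−0.25) and CYP51A1 (−0.20), had an unadjusted p below 0.05. Of all 17721 gene names tested, 1682 had such an unadjusted p. A t-test on the same values found 2 members at an unadjusted p below 0.05 and 0 after adjustment. The median difference was 0.00 in the sterol arm, 0.01 in the fatty acid arm and 0.01 over all gene names. The 95% intervals of the 27 members together ran from −1.61 to 1.02, and the widest belonged to INSIG1 and FADS2, whose 2 siRNA arrays stood far apart.

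INSIG1, the sterol-sensing brake on SCAP, was at a level of 2.58 and 2.58 in siCONT and of 2.15 and 1.49 in siUHRF1. It was at 3.18 and 3.18 in siCONT + TSA, at 2.15 and 1.16 in siUHRF1 + TSA, and at 3.60 under 5-aza-dC. The 4 arrays with siUHRF1 all lay below the 4 with siCONT, and the second siRNA gave the lower level both without and with TSA. The difference was −0.76 without TSA (limma adjusted p = 0.579) and −1.52 ± 0.35 (SE) under TSA (adjusted p = 0.0822), and neither was called. FADS2, a desaturase of polyunsaturated fatty acids, parted the siRNAs in the other direction. Its level was 0.85 and 0.88 in siCONT, 0.23 and 1.38 in siUHRF1, 1.08 and 1.17 in siCONT + TSA, 0.49 and 1.49 in siUHRF1 + TSA, and 0.15 under 5-aza-dC. The first siRNA lay below both controls and the second above them, with and without TSA. INSIG1 and FADS2 were the 2 members whose siRNAs differed by more than 0.5 both without and with TSA.

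**Figure D1:**
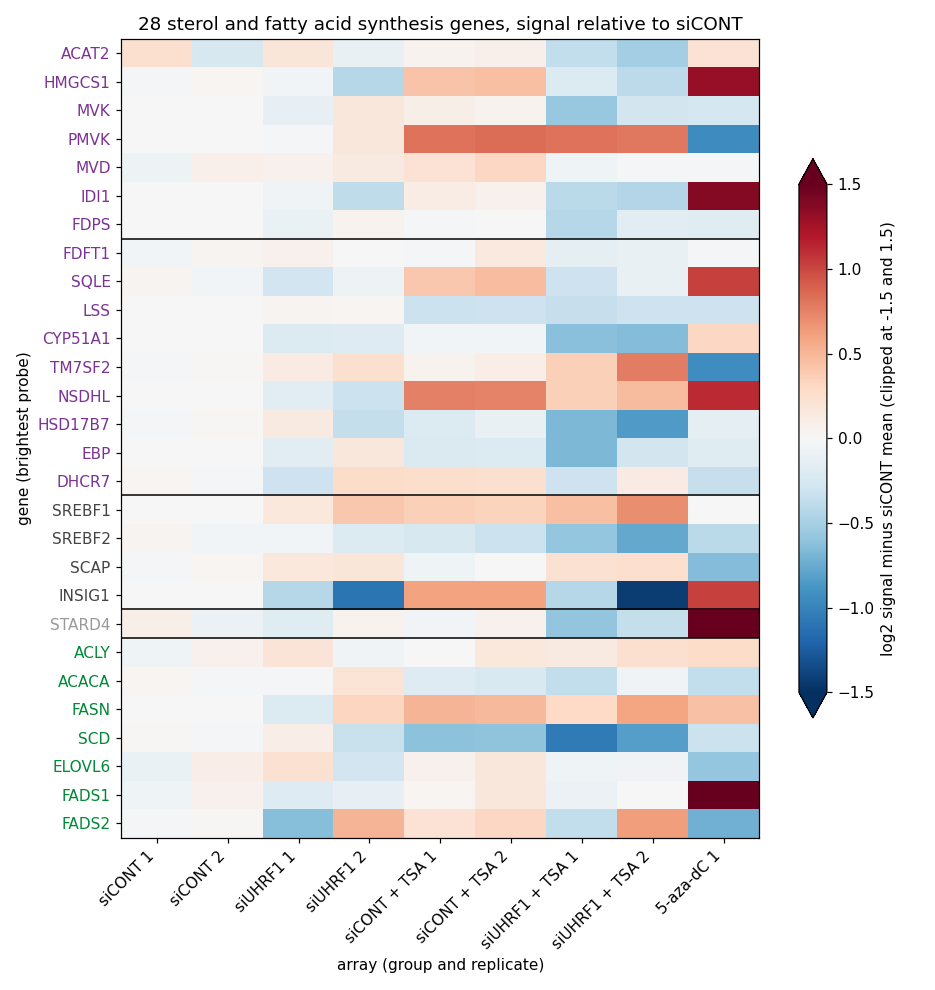
Heat map of 28 genes (rows, grouped from top to bottom as mevalonate steps, squalene to cholesterol, regulators, STARD4 and fatty acid genes) on 9 arrays (columns); colour is the log2 signal minus the mean of the 2 siCONT arrays, clipped at 1.5 in either direction. PMVK and NSDHL are above siCONT on all 4 TSA arrays, most sterol genes are below it on the siUHRF1 + TSA arrays, and FADS1 and STARD4 are highest on the 5-aza-dC array.

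TSA given to control cells raised 2 of 27 members, PMVK and NSDHL, a share near the 6.82% of all gene names that were higher. PMVK, the phosphomevalonate kinase (probe at chr1:154897398-154897457, hg19, minus strand), was at 2.32 and 2.31 in siCONT and at 3.13 and 3.15 in siCONT + TSA. It rose by 0.82 ± 0.097 (SE; 1.77-fold, limma adjusted p = 0.0111), and the groups did not overlap. NSDHL, a sterol dehydrogenase of the demethylation steps (probe at chrX:152037847-152037906, hg19, plus strand), was at 3.60 and 3.61 in siCONT and at 4.36 and 4.35 in siCONT + TSA. It rose by 0.75 ± 0.098 (SE; 1.68-fold, adjusted p = 0.0123), again without overlap. NSDHL is the member printed above with several CCAAT matches.

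The other 25 tested members were not called with TSA, where 4.39% of all gene names were lower. HMGCS1, the enzyme that makes HMG-CoA, and SQLE, squalene epoxidase, each stood 0.44 higher (adjusted p = 0.111 and 0.0683), and FASN, fatty acid synthase, 0.50 higher (adjusted p = 0.142). SCD, the desaturase that makes monounsaturated fatty acids, stood 0.61 lower (adjusted p = 0.0665). In all, 13 of 27 members were higher without overlap between the groups, where 44.2% of all gene names were. The medians were 0.07 in the sterol arm, 0.10 in the fatty acid arm and 0.05 over all gene names, and those of the arms were below 0 with normexp correction (−0.13 and −0.10) and with spike-in scaling (−0.09 and −0.06). With normexp correction PMVK, at 0.48, and NSDHL, at 0.43, lost the call (ranges over the alternatives 0.48 to 0.84 and 0.43 to 0.77), and the 1 member then called was lower. Leaving out any siCONT or siCONT + TSA array, which leaves 1 in that group, gave 0 called members, and leaving out either siUHRF1 array gave 7. With normexp background correction 11 rather than 18 of the 27 lay above 0, and the share of called gene names that were higher was 33.1% rather than 60.8%, and 37.3% with spike-in scaling.

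The same TSA treatment in UHRF1-depleted cells gave 6 called members, against a background of 9.84% of gene names higher and 6.84% lower. PMVK (levels 2.30 and 2.49 in siUHRF1, 3.13 and 3.11 in siUHRF1 + TSA) rose by 0.72, with limma adjusted p = 0.00886. NSDHL (3.44 and 3.28, then 3.96 and 4.08) rose by 0.66, with adjusted p = 0.0115. These 2 genes were thus called higher with TSA on both siRNA backgrounds, but in 1 fit whose spread comes from all 8 arrays. Fitted on the siUHRF1 and siUHRF1 + TSA arrays alone, neither was called, nor with normexp correction. With spike-in scaling PMVK was called and NSDHL, at 0.53, was not (limma adjusted p = 0.15).

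The 4 that fell on their brightest probes were CYP51A1 and LSS of the sterol arm, SCD of the fatty acid arm and the regulator SREBF2. CYP51A1, lanosterol demethylase (probe at chr7:91741463-91741495, hg19, minus strand), was at 2.22 and 2.23 in siUHRF1 and at 1.80 and 1.77 in siUHRF1 + TSA, and fell by 0.44 (limma adjusted p = 0.0202). SREBF2 was at 3.1 and 2.94 and then at 2.56 and 2.37, and fell by 0.56 (adjusted p = 0.0252). SCD was at 3.23 and 2.79 and then at 2.07 and 2.30, and fell by 0.82 (adjusted p = 0.0254). None of these groups overlapped. LSS, lanosterol synthase, was at 2.92 and 2.91 and then at 2.53 and 2.57, and fell by 0.37 on its brightest probe (adjusted p = 0.0329), while its second probe stood 0.19 higher (adjusted p = 0.355). HSD17B7, a sterol ketoreductase, stood at −0.65 on its brightest probe (adjusted p = 0.0539), and its other 2 probes above background were called lower (−0.60 and −0.62, adjusted p = 0.0318 and 0.0265). In this comparison 14 of 27 members were lower without overlap, where 23.8% of all gene names were, and the medians were −0.18 in the sterol arm and 0.04 in the fatty acid arm (−0.09 with spike-in scaling, and −0.17 without the second siRNA's TSA array). The fatty acid median was also below 0 without the first or the second siUHRF1 array (−0.13 and −0.10). The sterol median was −0.31 with spike-in scaling. Fitted on the siUHRF1 and siUHRF1 + TSA arrays alone, none of these 4 was called (0 calls in all), and with normexp correction SCD alone was. With spike-in scaling none of the 4 was called, at −0.57 for CYP51A1, −0.69 for SREBF2, −0.95 for SCD and −0.50 for LSS. With the replicate number as a block LSS was not called, and with that block within siRNA SCD was not. Without the second siRNA's TSA array, 3 members were called, without any siCONT or siCONT + TSA array 2.

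Within TSA-treated cells, depletion of UHRF1 gave 2 called members, SQLE and CYP51A1 of the sterol arm, both lower, against a background of 3.34% of gene names higher and 0.632% lower. SQLE was at 2.95 and 3.01 in siCONT + TSA and at 2.24 and 2.43 in siUHRF1 + TSA, without overlap, and fell by 0.64 ± 0.12 (SE; 1.56-fold lower, limma adjusted p = 0.0423). CYP51A1 was at 2.38 and 2.38 and then at 1.80 and 1.77, without overlap, and fell by 0.60 ± 0.080 (SE; 1.51-fold lower, adjusted p = 0.0144). With the replicate number as a block CYP51A1 was called and SQLE was not. With normexp background correction neither was called, at −0.32 for SQLE and −0.28 for CYP51A1, the smallest values among the alternatives tried (−0.74 to −0.32 and −0.61 to −0.28).

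Of the 16 sterol genes, 15 had a difference below 0 and 13 were lower without overlap between the groups, where 28.4% of all gene names were. The sterol median was −0.34, that of the 6 tested fatty acid genes −0.09 and that of all gene names −0.01. All 7 mevalonate genes were below 0, from HMGCS1 at −0.74 (adjusted p = 0.0535) to PMVK at −0.02. IDI1, the isomerase that makes dimethylallyl diphosphate, stood at −0.51, ACAT2, the cytosolic thiolase, at −0.50, MVK, mevalonate kinase, at −0.49, MVD, the decarboxylase, at −0.31 and FDPS, farnesyl diphosphate synthase, at −0.29. HMGCS1 had levels of 1.06 and 1.09 in siCONT + TSA and of 0.43 and 0.24 in siUHRF1 + TSA. After squalene, HSD17B7, a sterol ketoreductase, stood at −0.59, and FDFT1 (squalene synthase), EBP (a sterol isomerase) and DHCR7 (the reductase of a last step) between −0.18 and −0.35. TM7SF2, a sterol reductase, was the exception above 0, at 0.49 (adjusted p = 0.154). NSDHL stood at −0.34, LSS at −0.02 and STARD4 at −0.49 (adjusted p = 0.136). None of the members in this paragraph was called on its brightest probe, and of their other probes the third of HSD17B7 was called lower (−0.74, limma adjusted p = 0.0331).

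In the fatty acid arm 5 of the 6 tested genes were below 0 and 2, SCD and ELOVL6, were lower without overlap, with a range from −0.33 for SCD to 0.11 for ACLY, the enzyme that makes cytosolic acetyl-CoA. ACACA, which makes malonyl-CoA, stood at −0.01, FASN at −0.05, ELOVL6, a fatty acid elongase, at −0.18 and FADS2 at −0.13, none of them called. With both siRNAs, 19 of the 27 members lay below the siCONT + TSA mean, 4 above, and 3 were parted by the siRNAs, while LSS was at 0.00 from it with the second. Without TSA the counts were 7, 6 and 14. The comparison depended on single arrays and on the background correction. Leaving out any siCONT array, any siCONT + TSA array or the second siRNA's TSA array gave 0 called members, leaving out the first siRNA's TSA array gave 1, and leaving out either siUHRF1 array gave 5. With normexp correction the sterol median was −0.12, the fatty acid median turned to 0.17 (and to 0.12 without the first siRNA's TSA array), and 15 rather than 23 of the 27 members were below 0. The share of called gene names that were higher was 84.1%, against 94.2% with normexp correction and 94.3% with spike-in scaling.

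**Figure D2:**
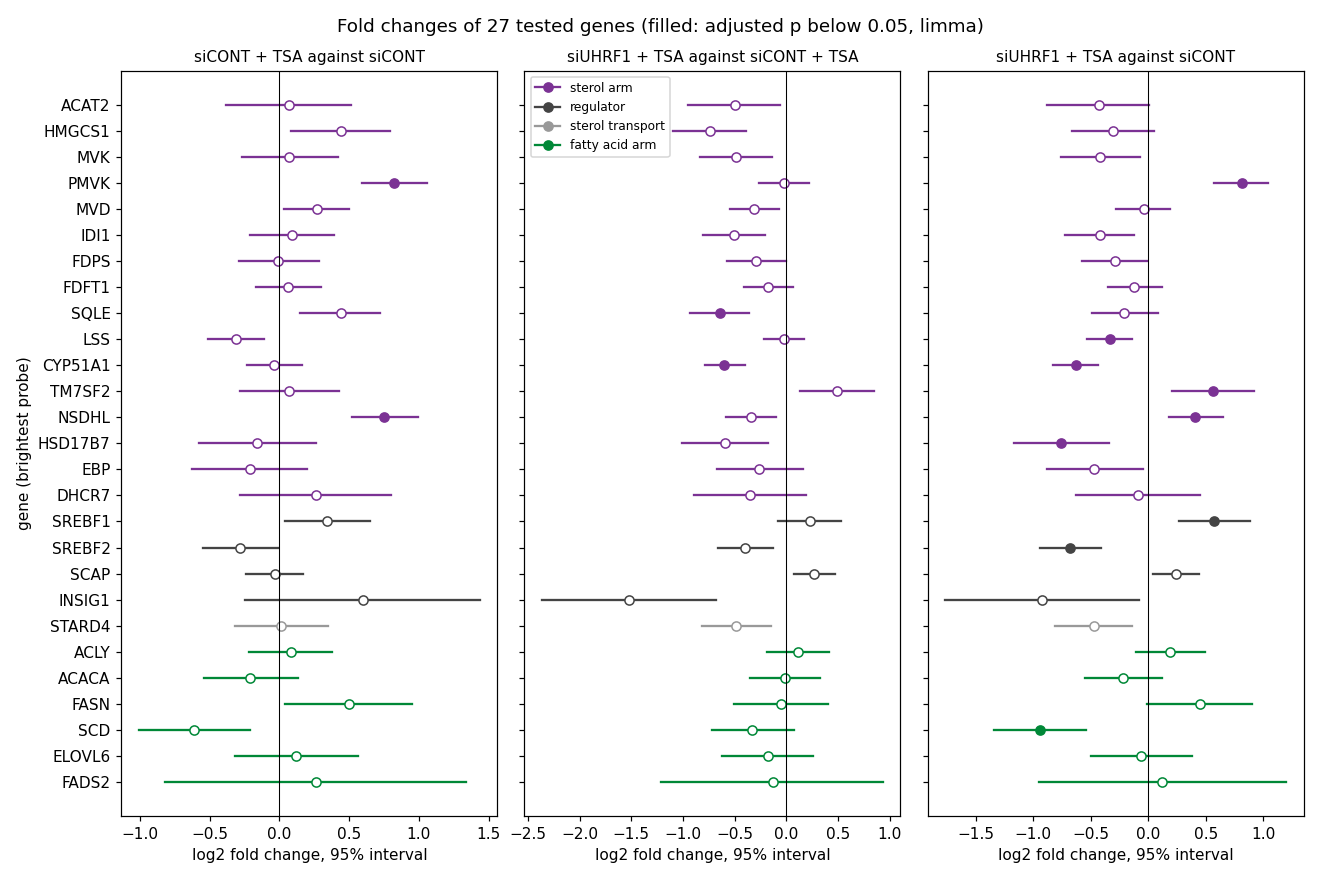
Log2 fold changes of the 27 tested genes (rows) with 95% intervals (lines) in 3 comparisons, coloured by arm, with filled points where the adjusted p was below 0.05. In the middle panel 15 of 16 sterol genes lie below 0 while SQLE and CYP51A1 alone are filled, and the left and right panels show PMVK and NSDHL raised with TSA.

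Whether UHRF1 depletion acted differently with and without TSA was tested directly. In limma 0 of 27 members were called for this difference, against a background of 0.339% of gene names higher and 0.0339% lower. At an unadjusted p below 0.05 there were 5 members, all sterol genes and all with the more negative difference under TSA, namely HMGCS1 and MVK (−0.51 each), SQLE (−0.46), MVD (−0.41) and CYP51A1 (−0.40; adjusted p = 0.603). Of all 17721 gene names tested, 943 were below that unadjusted threshold. The median of the difference was −0.32 in the sterol arm, −0.11 in the fatty acid arm and −0.02 over all gene names, and 95% intervals of the members ran from −1.96 to 1.44. A lower sterol arm under TSA than without it was therefore not shown for any gene, and with normexp correction the sterol median of this difference was −0.05 and the fatty acid median 0.13.

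In the main fit, the combination against untreated control cells gave the most called members of the siRNA comparisons, 9 of 27 (4 higher and 5 lower), with a background of 15.4% of gene names higher and 9.42% lower. In fits of only the groups compared, TSA alone gave 14 and the combination 7. The combination shares the siCONT arrays or the siUHRF1 + TSA arrays with the comparisons above. The genes that were higher were PMVK (0.81 higher, limma adjusted p = 0.00375), SREBF1, TM7SF2 and NSDHL (0.41 higher, adjusted p = 0.029). TM7SF2 had levels of 0.98 and 1.01 in siCONT and of 1.35 and 1.76 in siUHRF1 + TSA, a rise of 0.56 (adjusted p = 0.0392). The remaining groups, siUHRF1 (1.12 and 1.24) and siCONT + TSA (1.05 and 1.09), lay between, so the second siRNA with TSA was the highest array for TM7SF2.

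The genes that were lower were SCD, HSD17B7, SREBF2, CYP51A1 and LSS. SCD was at 3.14 and 3.11 in siCONT, at 2.51 and 2.52 in siCONT + TSA and at 2.07 and 2.30 in siUHRF1 + TSA. With the combination it fell by 0.94 ± 0.16 (SE; 1.91-fold lower, limma adjusted p = 0.0115). HSD17B7 was at −0.82 and −0.78 in siCONT and at −1.47 and −1.65 in siUHRF1 + TSA, and fell by 0.76 (adjusted p = 0.026). The other 2 of its probes that were above background gave −0.71 and −0.58, and a near-identical pseudogene transcript could add to any of them. CYP51A1 was at 2.42 and 2.43 in siCONT, fell by 0.63 ± 0.080 (SE; 1.55-fold lower, adjusted p = 0.00421) and was lowest on the 2 arrays of the combination. LSS fell by 0.33 (adjusted p = 0.0317) on its brightest probe, while its second probe was called in the opposite direction, 0.49 higher (adjusted p = 0.0409).

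In the combination 16 of 27 members were lower than siCONT without overlap, where 31.7% of all gene names were. The medians were −0.30 in the sterol arm, 0.03 in the fatty acid arm (−0.10 with spike-in scaling, and −0.22 without the second siRNA's TSA array) and 0.03 over all gene names. The sterol arm median minus the fatty acid arm median was −0.33, and −0.11 without the second siRNA's TSA array. With normexp correction 3 of the 9, PMVK, SREBF2 and SCD, were called. Leaving out either siCONT array gave 2 called members, and leaving out either siCONT + TSA array or the second siRNA's TSA array gave 4.

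**Figure D3:**
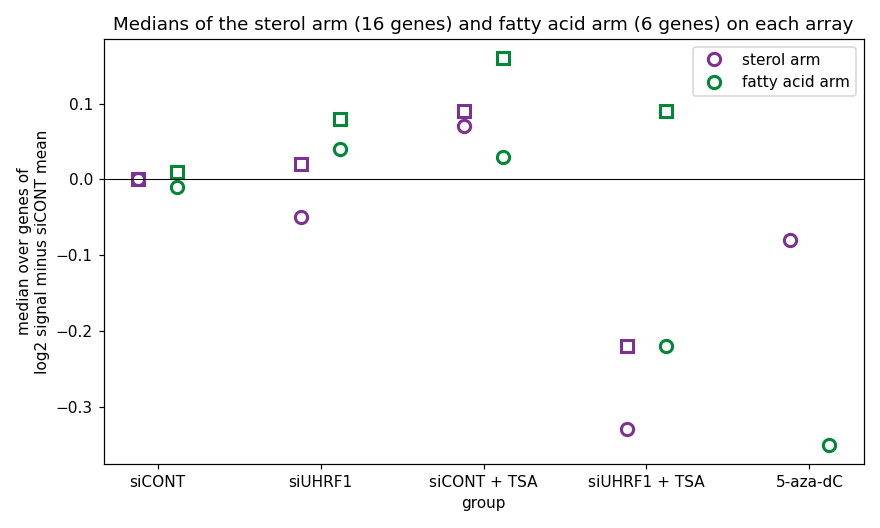
Median over genes of the log2 signal minus the siCONT mean (vertical axis) on each of the 9 arrays by group (horizontal axis), for the 16 sterol genes and the 6 fatty acid genes that were above background throughout; circles are replicate or siRNA 1 and squares 2. The sterol median is −0.33 and −0.22 in siUHRF1 + TSA and between −0.05 and 0.09 on the other siRNA arrays, whereas the fatty acid median of siUHRF1 + TSA, −0.22 and 0.09, overlaps that of the other groups.

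Array by array, the sterol arm had a median of 0.07 and 0.09 above the siCONT mean in siCONT + TSA and of −0.33 and −0.22 in siUHRF1 + TSA. The fatty acid arm had medians of 0.03 and 0.16, and of −0.22 and 0.09. The 2 arrays of the combination were thus the lowest siRNA arrays for the sterol genes, and for the fatty acid genes the first siRNA with TSA alone stood below the rest.

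Of the regulators, SREBF2 was called lower and SREBF1 higher with the combination, while SCAP and INSIG1 were called in no siRNA comparison. SREBF2 was at 3.18 and 3.1 in siCONT, 3.1 and 2.94 in siUHRF1, 2.90 and 2.82 in siCONT + TSA, 2.56 and 2.37 in siUHRF1 + TSA, and 2.74 under 5-aza-dC. With the combination it fell by 0.68 ± 0.11 (SE; 1.60-fold lower, limma adjusted p = 0.00925), and both of those arrays lay below every other array. SREBF1, whose protein drives fatty acid genes, was at 5.65 and 5.65 in siCONT, 5.81 and 6.05 in siUHRF1, 6.01 and 5.98 in siCONT + TSA, 6.10 and 6.35 in siUHRF1 + TSA, and 5.64 under 5-aza-dC. It rose by 0.57 ± 0.13 (SE; 1.49-fold, adjusted p = 0.0237) with the combination, and every array with TSA or siUHRF1 was above both siCONT arrays. The second SREBF1 probe stood at −0.08 in that comparison (adjusted p = 0.616), so the rise was seen on the brightest probe alone.

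SCAP was at 3.19 and 3.25 in siCONT, 3.38 and 3.40 in siUHRF1, 3.16 and 3.22 in siCONT + TSA, 3.45 and 3.47 in siUHRF1 + TSA, and 2.57 under 5-aza-dC. The 4 arrays with siUHRF1 were above the 4 with siCONT, but the differences of 0.17 without TSA and 0.27 under TSA were not called (limma adjusted p = 0.63 and 0.16). INSIG1 differed from siCONT by −0.92 in the combination (adjusted p = 0.105) and by 0.60 with TSA alone (adjusted p = 0.309).

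**Figure D4:**
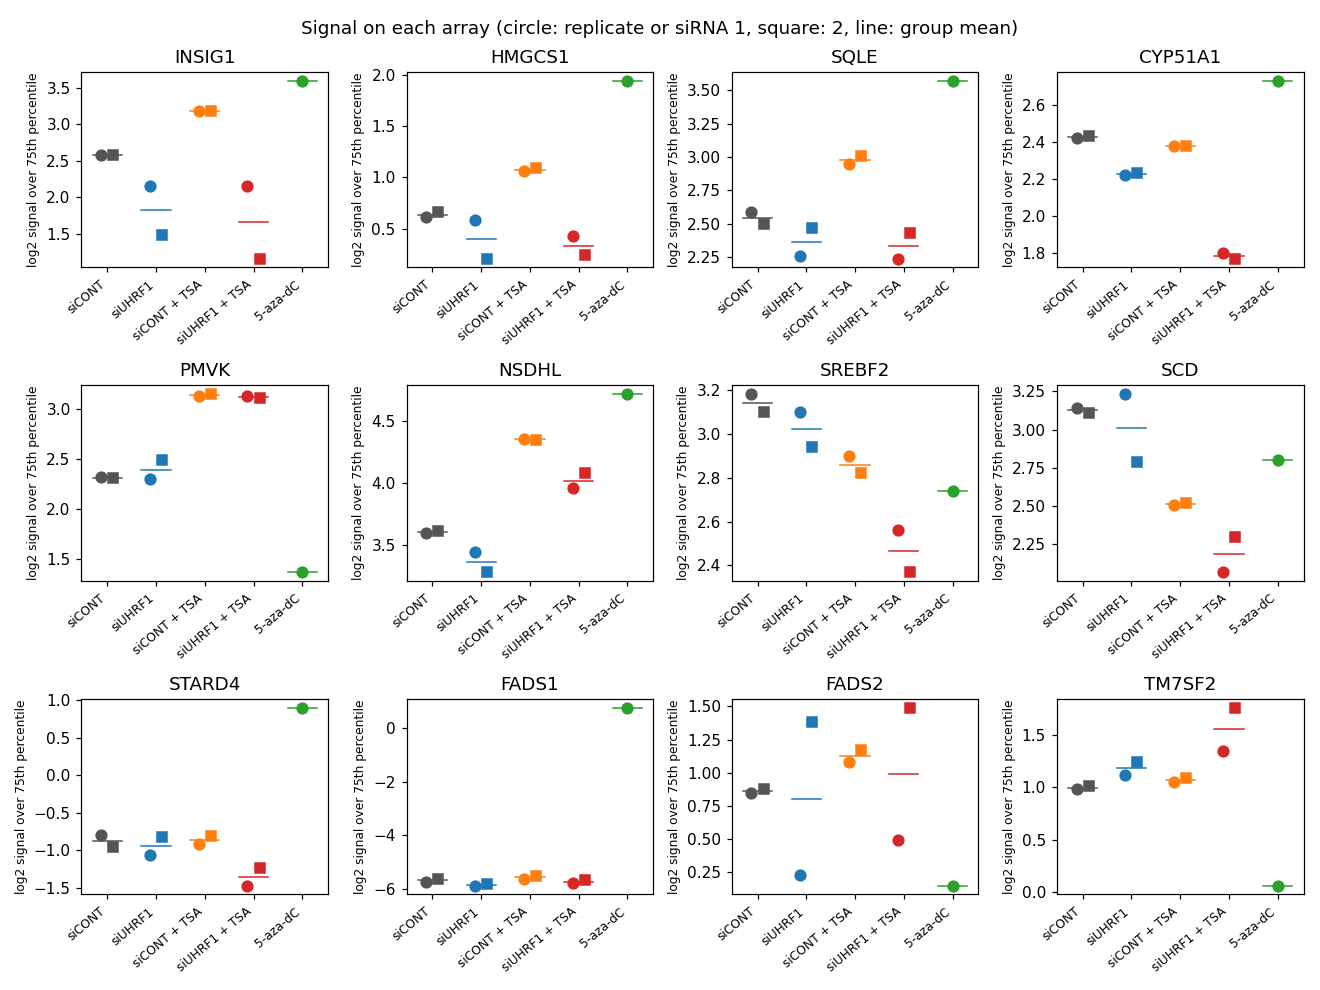
Level of 12 genes (log2 signal over the 75th percentile of the array, vertical axis, with its own range in each panel) on each array by group (horizontal axis); circles are replicate or siRNA 1, squares 2, and lines group means. The 4 siUHRF1 arrays lie below the 4 siCONT arrays for INSIG1, PMVK and NSDHL are higher with TSA, the siRNAs are far apart for FADS2, and FADS1 is at −5.86 to −5.49 on the siRNA arrays, where it is not above background, and at 0.74 under 5-aza-dC.

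Leaving FADS1 aside, with 5-aza-dC 6 of the other 27 members were called higher and 4 lower than in siCONT (0 and 23 with spike-in scaling), where 25.6% of gene names were called higher and 24.2% lower. This rests on 1 array, which limma assumed to vary like the groups with 2, and drug, slide, scan and absence of siRNA cannot be told apart. FADS1, a desaturase of polyunsaturated fatty acids (probe at chr11:61567126-61567185, hg19, minus strand), changed the most. It was not well above background on any siRNA array, with levels of −5.73 and −5.60 in siCONT, and was at 0.74 under 5-aza-dC. With the main scaling this is at least 22.6-fold higher than siCONT. It is given as a description with no test, since FADS1 entered the comparison only through the array on which it is high. The limit depends on the processing, because the log2 difference of FADS1 was 6.41 here, 4.67 with spike-in scaling and 2.49 with normexp correction. FADS2, which lies on the opposite strand of the same chromosome, was above background on every array on its brightest probe. That probe had a difference of −0.72 under 5-aza-dC (limma adjusted p = 0.324). Its second probe, above background on 8 arrays only, gave −1.84 (limma adjusted p = 0.00238), a value that may therefore not be exact.

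Promoter windows of FADS1 and FADS2 are shown because these neighbouring genes differed in this way. For each symbol 1 window was kept, and it was not matched to the transcript of the probe (NM_004265 for FADS2). The FADS2 window may therefore not be the promoter of the transcript measured. The median number of CpG dinucleotides in a promoter window was 14 over all promoters, 26 over those of tested genes and 28 over those of members, and FADS1 had 32 and FADS2 18. DNA methylation was not measured here. Capitals mark CpG dinucleotides, and the windows (GRCh38.p14) are chr11:61816954-61817253 on the minus strand for FADS1 and chr11:61815953-61816252 on the plus strand for FADS2.
FADS1: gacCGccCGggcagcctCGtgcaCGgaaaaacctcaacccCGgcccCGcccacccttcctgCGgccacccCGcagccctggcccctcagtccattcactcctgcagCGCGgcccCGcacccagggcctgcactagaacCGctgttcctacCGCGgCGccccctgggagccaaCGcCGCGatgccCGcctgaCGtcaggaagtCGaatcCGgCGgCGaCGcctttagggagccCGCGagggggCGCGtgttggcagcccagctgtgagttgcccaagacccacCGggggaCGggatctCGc
FADS2: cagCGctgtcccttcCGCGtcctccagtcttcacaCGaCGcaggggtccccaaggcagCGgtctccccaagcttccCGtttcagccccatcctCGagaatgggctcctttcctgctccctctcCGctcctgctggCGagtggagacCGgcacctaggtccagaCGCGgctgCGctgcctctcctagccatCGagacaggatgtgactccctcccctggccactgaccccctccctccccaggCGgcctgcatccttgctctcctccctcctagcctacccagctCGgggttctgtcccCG

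STARD4, the sterol carrier, was at −0.79 and −0.96 in siCONT and at 0.90 under 5-aza-dC, 1.78 ± 0.17 (SE) higher (3.42-fold, limma adjusted p = 0.000615). No siRNA array reached that level. IDI1 was at 2.05 and 2.03 in siCONT and at 3.42, 1.38 higher (adjusted p = 0.00106), and HMGCS1 at 0.61 and 0.66 and at 1.94, 1.30 higher (adjusted p = 0.00242). NSDHL was at 4.72 under 5-aza-dC, 1.11 higher (adjusted p = 0.000925), and SQLE at 2.59 and 2.50 in siCONT and 3.57 under 5-aza-dC, 1.03 higher (adjusted p = 0.00255). For HMGCS1, IDI1 and SQLE the 5-aza-dC array was the highest of the 9 and the siUHRF1 + TSA arrays were among the lowest.

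PMVK, raised by TSA, went the other way under 5-aza-dC, at a level of 1.37, and fell by 0.95 (limma adjusted p = 0.00166). TM7SF2 was at 0.06 and fell by 0.94 (adjusted p = 0.00811), and SCAP fell by 0.66 (adjusted p = 0.00342). CYP51A1 was 0.31 higher (adjusted p = 0.0428) and LSS fell by 0.30 (adjusted p = 0.0451). Of the 16 sterol genes 5 were called higher and 3 lower, beside 25.6% and 24.2% of all gene names, with a median of −0.08. The fatty acid arm, FADS1 aside, had 0 calls on brightest probes. In limma 1 of its genes apart from FADS1 was at an unadjusted p below 0.05, beside 11529 of 20261 gene names. With FADS1 counted, the median of the fatty acid arm was −0.33. The fatty acid median turned to 0.13 with the mean over the probes of a gene, and the sterol median to 0.10 with normexp correction. Second probes were called for 3 fatty acid genes, lower for FADS2 and for ELOVL6 (−1.59, limma adjusted p = 0.000741, against −0.58 on the brightest) and higher for ACACA (0.64, adjusted p = 0.0123, against −0.37). Of all 27142 probes tested in this comparison, 13449 were called. INSIG1 differed by 1.02 (adjusted p = 0.101), SREBF2 by −0.41 (adjusted p = 0.0517) and SREBF1 by −0.01.

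The direction of 5 of these called genes depended on the scaling. When the arrays were set equal on 7 spike-in probes, the median of all gene names moved from 0.05 to −1.68 and 8.03% rather than 51.4% of called gene names were higher. HMGCS1, IDI1, SQLE, CYP51A1 and NSDHL then turned to values below 0 (−0.44, −0.36, −0.71, −1.43 and −0.62), which is still above that median, and 26 of 28 members were below 0. STARD4, at 0.04, was no longer called. LSS was at 0.02 with normexp correction.

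Other genes of the same routes were taken from lists of 13 sterol genes and 20 fatty acid genes. With siUHRF1 alone 0 of 13 and 0 of 18 tested were called by limma, where 0.7% of all gene names were higher and 0.0395% lower. At an unadjusted p below 0.05 there were 4 and 1, beside 1682 of 17721 gene names. The sterol list also had 0 calls with TSA alone, under TSA and between siUHRF1 and siUHRF1 + TSA. All gene names were called higher and lower there at 6.82% and 4.39%, 3.34% and 0.632%, and 9.84% and 6.84%. Its members at an unadjusted p below 0.05 were 3, 5 and 3, beside 5308, 3295 and 5921 of 17721 gene names. In the combination 3 of 13 sterol genes were called, 1 higher and 2 lower, a share near that of all gene names (15.4% higher and 9.42% lower). MSMO1, the sterol methyl oxidase that acts beside NSDHL, fell by 0.95 (limma adjusted p = 0.0277) and was at −1.56 and −1.49 in siCONT and −2.81 and −2.13 in siUHRF1 + TSA. TMEM97, a sterol-responsive membrane protein, was also lower, and GGPS1, which draws farnesyl diphosphate into geranylgeranyl diphosphate, was 0.72 higher (adjusted p = 0.0109). The sterol list had a median of −0.21 in the combination and −0.05 under TSA.

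Of the fatty acid list 4 of 18 tested genes were called in the combination, 2 in each direction, again near the share of all gene names. DGAT2, which completes triglycerides, was 1.32 higher (limma adjusted p = 0.0289) and ACSL5, an acyl-CoA synthetase, 1.14 higher (adjusted p = 0.0138), whereas its relative ACSL3 fell by 0.76 (adjusted p = 0.00485). MLXIPL, the carbohydrate-responsive factor that shares fatty acid targets with SREBF1, was at −0.33 and −0.33 in siCONT, 0.16 and 0.13 in siUHRF1, −1.33 and −1.44 in siCONT + TSA, and −0.69 and −0.65 in siUHRF1 + TSA. It fell by 1.05 with TSA in control cells (adjusted p = 0.0056) and by 0.81 in UHRF1-depleted cells (adjusted p = 0.00484), and was 0.71 higher with siUHRF1 under TSA (adjusted p = 0.0102), where ACSL3 fell by 0.55 (adjusted p = 0.042). The 4 TSA arrays lay below the other 4 siRNA arrays for MLXIPL, and the 5-aza-dC array, at −1.13, lay among them. Between siUHRF1 and siUHRF1 + TSA, ACSL5 was 1.27 higher (adjusted p = 0.0158) and ACSL3 fell by 0.60 (adjusted p = 0.0162).

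Under 5-aza-dC 2 of the 13 sterol genes were called higher and 5 lower, and 1 of 18 fatty acid genes higher and 5 lower, where 25.6% of all gene names were higher and 24.2% lower. The other 2 fatty acid genes are given without a test. ME1, malic enzyme, which supplies NADPH for fatty acid synthesis, was at least 3.44-fold higher and ELOVL5, a fatty acid elongase, at least 5.07-fold higher. Like FADS1, both exceeded background with 5-aza-dC alone and entered the comparison through that array, so these folds are descriptions. They hold for the main scaling alone. They were not computed with spike-in scaling, which moved the median of all gene names from 0.05 to −1.68. SC5D, a sterol desaturase, was at least 2.78-fold lower than in siCONT (limma adjusted p = 0.0435). ACACB and ACSS2, which make malonyl-CoA and acetyl-CoA, fell by 1.06 and 1.05 (adjusted p = 0.00138 and 0.00113).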

How the data were processed

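Labelled RNA of RKO cells was hybridised to Agilent SurePrint G3 Human GE v2 arrays, and the authors read the spots with Agilent's software Feature Extraction (version 10.7.3.1 per the file headers, Agilent Feature Extraction 10.7 in the submitters' processing notes). The deposited signals are intensities on a linear scale, background-subtracted and spatially detrended, with no normalization between arrays; the deposited value table held the same values rounded (within 0.497% on every array) and served as an alternative. The methods name GeneSpring GX for the arrays without stating whether or how values were normalized, and list t-tests and ANOVA for comparisons in general.

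Control spots (4259 of 62976) and outlier spots were removed, and repeat spots were averaged to 50599 probes. From the log2 values of an array its percentile 75 was subtracted. A probe was tested if some siRNA group had it well above background on its 2 arrays, or if the 5-aza-dC array did for that comparison, and if it had a value on every array of the fit. limma 3.58.1 in R 4.3.3 (lmFit, eBayes) modelled the 4 siRNA groups together (8 arrays), with the 5-aza-dC array added for its own comparison, and a call was a Benjamini-Hochberg adjusted p below 0.05 over all probes. The procedure was tested on simulated data, with independent noise of the same spread in all groups. The planted changes were larger than that of any called member in the siRNA comparisons. The simulation therefore did not cover groups of unlike spread, arrays that share an siRNA or changes as small as those reported. Counts of gene names use the brightest probe. A fold written as "at least" sets the bright group's mean against the lowest signal well above background on each array of the dim group, or the probe's own where higher. Such folds were computed with the main scaling only.

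Each array's value is given for the 4 regulators and for members called without overlap between groups, at most 8 for each comparison by size, and other pathway genes are named by the same rule, at most 6; HMGCS1 under TSA, FADS2, LSS, TMEM97, ECHS1 and HADH in the combination, and ACACB, ACSS2, MYLIP and LPCAT3 under 5-aza-dC were added after their values were seen. The members, lists and tests were chosen with earlier results of these data known. Other background corrections, scalings, filters, probes, fits and thresholds, the replicate block and leaving out each array were tried. Promoters were matched to RefSeq by symbol.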

Additional observations from a re-analysis of the deposited data

How the results depend on the processing

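The small number of arrays limits these results, and 27 of 28 members were above background on every array. Over the called members and settings, 500 gene values kept direction and call, 187 kept direction but lost the call, and 7 reversed: with spike-in scaling of the 5-aza-dC comparison HMGCS1 (−0.44), IDI1 (−0.36), SQLE (−0.71), CYP51A1 (−1.43) and NSDHL (−0.62), with normexp correction LSS under 5-aza-dC (0.02), and with the mean over probes LSS in the combination (0.08). The cause was not tested. Where the alternative moved the count by over 1.5 times, the members called were as follows. With TSA alone (2 called) normexp correction gave 1 (lower, neither PMVK nor NSDHL), spike-in scaling 0, a fit of only the groups compared 14, a robust prior with a trend 5, an unadjusted p 10, a further threshold of over 2-fold 0, and the methods' t-test 17 unadjusted and 9 adjusted. With the combination (9 called) these were normexp 3, quantile normalization 14, no filter 4, unadjusted p 16, over 2-fold 0 and the adjusted t-test 1. For siUHRF1 under TSA (2 called) they were normexp 1 (neither SQLE nor CYP51A1), spike-in scaling 0, no filter 1, background on every array 1, only the groups compared 0, trended prior 5, unadjusted p 15, over 2-fold 0, t-test 9 and 0 adjusted, and the mean over probes 4. For TSA after siUHRF1 (6 called) they were normexp 1, spike-in scaling 3 (of the 6, PMVK alone), no filter 3, only the groups compared 0, unadjusted p 12, over 2-fold 0 and the adjusted t-test 0. For 5-aza-dC (11 called, FADS1 included) spike-in scaling gave 24 (1 higher, 23 lower), only the groups compared 18 and over 2-fold 6. With siUHRF1 alone (0 called) an unadjusted p and the unadjusted t-test gave 2 each, while the test of siUHRF1's effect with against without TSA (0 called) gave 5 at an unadjusted p. At an unadjusted limma p below 0.05, 5308 of 17721 gene names passed with TSA alone and 7014 in the combination. For siUHRF1 under TSA 3295 passed, for TSA after siUHRF1 5921, with siUHRF1 alone 1682 and for the difference 943. Leaving out each array in turn gave 0 to 7 with TSA alone, 2 to 13 in the combination, 0 to 5 for siUHRF1 under TSA, 2 to 9 for TSA after siUHRF1, and a sterol minus fatty acid median of −0.38 to −0.11 in the combination; where this leaves 1 array in a group, it is assumed to vary like the other groups. That median difference under 5-aza-dC was 0.24 with FADS1 counted, and −0.16 with the mean over probes. Among probes above background on every array, which leaves FADS1 out, it was 0.27. Spike-in scaling moved the median of all gene names from 0.05 to −0.10 with TSA alone and to −1.68 under 5-aza-dC.

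Replicate numbers name the same siRNA in siUHRF1 and siUHRF1 + TSA, whose deviations correlated across probes (r = 0.47), while siCONT arrays share only a number (r = 0.08). With the replicate block 2 members were called with TSA alone, 9 in the combination, 1 for siUHRF1 under TSA (CYP51A1, not SQLE) and 5 for TSA after siUHRF1 (not LSS). With the replicate block within siRNA 7 were called with TSA alone, 8 for TSA after siUHRF1 (not SCD) and 0 for the difference. A slide or scan block could not be fitted, since the 5-aza-dC array alone lay on the second slide.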

Other observations

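Among 12 genes of fatty acid oxidation, which burn what the synthesis genes make, 1 was called with TSA alone, where 6.82% of all gene names were higher and 4.39% lower. With siUHRF1 alone and under TSA 0 were called by limma, beside 0.7% and 3.34% of all gene names higher and 0.0395% and 0.632% lower. At an unadjusted p below 0.05 there were 0 and 3 of the 12, beside 1682 and 3295 of 17721 gene names. In the combination 2 were called, where 15.4% of all gene names were higher and 9.42% lower. ACAA2, the mitochondrial thiolase, was 0.61 higher with TSA (limma adjusted p = 0.0206). In the combination ECHS1, an enoyl-CoA hydratase, was 0.65 higher (adjusted p = 0.00451), and HADH, which follows it in the cycle, fell by 0.43 (adjusted p = 0.019). Both were also called between siUHRF1 and siUHRF1 + TSA, at 0.45 and −0.52, where 9.84% of all gene names were higher and 6.84% lower. Under 5-aza-dC 6 of 12 were lower and 1 higher, beside 24.2% and 25.6% of all gene names. ACADVL and ACADS, acyl-CoA dehydrogenases for very long and short chains, fell by 1.20 and 1.14 (adjusted p = 0.000722 and 0.00159).

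Of 7 liver X receptors and their targets, which remove excess sterol, 5 were tested in the siRNA comparisons. SMPDL3A was lower in the combination by −0.84 (limma adjusted p = 0.0361) and was the 1 call among them, where 9.42% of all gene names were lower and 15.4% higher. Under 5-aza-dC ABCA1, the cholesterol exporter, was at least 1.78-fold higher with the main scaling. This is a description only, since ABCA1 entered the comparison through that array alone, and the limit was not computed with spike-in scaling. MYLIP and LPCAT3 fell by 0.81 and 0.74 (limma adjusted p = 0.0131 and 0.0125), 2 of the 5 genes that were also tested in the siRNA comparisons, beside 24.2% of all gene names.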
